A study of Mus musculus with 23 samples.

Results

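The genes described here encode the proteins that hold cells together and the scaffolds beneath them: cadherins, protocadherins, catenins, tight junction proteins, Dlg scaffolds, connexins, contactins, nectins and neuroligins. They were taken by symbol, as every probe whose platform gene symbol begins with Cdh and a digit, Pcdh, Cldn, Gja, Gjb or Gjc and a digit, Ctnn, Tjp, Dlg1 to Dlg5, Nrxn, Nlgn, Cntn, Nectin or Ocln. A probe is here the mean of the spots that carry 1 GenBank entry. The rule found 87 probes for 83 gene symbols, out of 8997 named probes for 8726 symbols. The 87 comprise 23 probes for claudins, occludin and Tjp scaffolds, 15 for cadherins, 15 for protocadherins, 9 for connexins, 8 for catenins, 8 for contactins and Cntnap proteins, 4 for Dlg scaffolds, 4 for nectins and 1 for a neuroligin. The prefixes also take in genes that share only a name with these families, such as Ctnnbl1, a splicing-associated protein.

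Transcripts were measured in prefrontal cortex. The mice were male Balb/c, injected under the skin at 8 weeks of age with 1000000 CT-26.WT cells in 300 ul of PBS, or with the same volume of PBS alone, and killed 18, 72 or 192 h later. CT-26.WT is a mouse colon carcinoma line derived from the same strain, and the tissue measured is not the injected one. Each oligonucleotide array compared cortex RNA of tumour-injected mice with that of PBS-injected mice of the same time, labelled with Cy3 and Cy5 dyes in either order. The labels do not say how many animals stand behind a replicate, so the p-values measure the spread between labelled replicates. Probe values are log2 ratios, tumour over PBS, after a loess normalisation within each scan. A value of 1 is a doubling and 0 is no difference.

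Cadherins are calcium-dependent adhesion proteins that bind their like on the neighbouring cell, and catenins tie their tails to actin. Protocadherins of the clustered families give neurons combinatorial surface identities. In the vessels of the brain, claudins, occludin and the Tjp scaffolds seal the endothelial barrier, while connexins form channels between coupled cells. Contactins, neuroligins, nectins and the Dlg scaffolds organise contacts of axons and synapses.

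Of the 23 arrays, 16 entered the comparisons: 3 replicates at 18 h on 6 arrays, 2 at 72 h on 3 arrays and 4 at 192 h on 7 arrays. The other 7 were left out because the brightness of their probes did not follow that on arrays of other print layouts (mean Spearman rho of 0.00754 to 0.0508, against 0.191 to 0.508 on the arrays kept). That removed replicates 1 and 2 at 72 h. Of the 9 replicates, 6 were measured in both dye orientations, and there a probe had a replicate value only where both orientations gave one. Tumour RNA was in Cy5 alone for replicate 3 of 72 h and replicate 1 of 192 h, and in Cy3 alone for replicate 2 of 192 h. The 192 h replicates numbered 1 and 2 used poly(A) RNA, all the rest total RNA. With same-layout arrays, the remaining array of 72 h replicate 3 correlated at a rho of only 0.062. Every other kept array reached at least 0.206. Where 2 replicate values are given below for 72 h, the first is from that array. It is also the only source of the 72 h values of Cdh1, Ctnna1, Ctnnbl1, Tjp1, Cldn1, Cldn2 and Dlg3. The scans held 1821 to 8638 usable spots. The probe markers of neurons and astrocytes lay at median brightness percentiles of 66.2 and 70.2, above the 44.5 of all probes. Markers of microglia lay at 31.3 and those of epithelial tumour cells at 33.4.

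The members were about as bright as the other probes of the arrays. Their median brightness, as a percentile of both channels together within an array, was 42.9 against 44.5 for all probes. 4 members lay at the 75th percentile or above, 30 between the 50th and 75th, 49 between the 25th and 50th, and 4 below the 25th. Brightness depends on the oligonucleotide as well as the transcript, so it ranks probes and not transcript levels. The brightest probe was that of Ctnnb1, β-catenin, at the 87.1st percentile, followed by Dlg4, the postsynaptic scaffold PSD-95, at the same percentile to 1 decimal. Then came a probe of Cdh13, T-cadherin, at 83.0, a probe of Cldn10, a claudin of ion-selective pores, at 78.8, and Cldn11, the claudin of myelin, at 73.4. The dimmest was Cldn2, a claudin of leaky epithelia, at 18.9. Contactins had the highest median of the larger classes, 56.9, with catenins at 54.2, tight junction probes at 38.9, cadherins at 36.3 and protocadherins at 35.7.

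Brighter members had values on more arrays, with a Spearman rho of 0.579 between brightness and the number of arrays over the 87 probes. This correlation is a description across probes that share the same arrays. Every member had a value in at least 1 replicate. Only Ctnnb1, Ctnnd2, Gja4, Cntn6 and Cldnd1 had one in all 9.

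**Figure D1:**
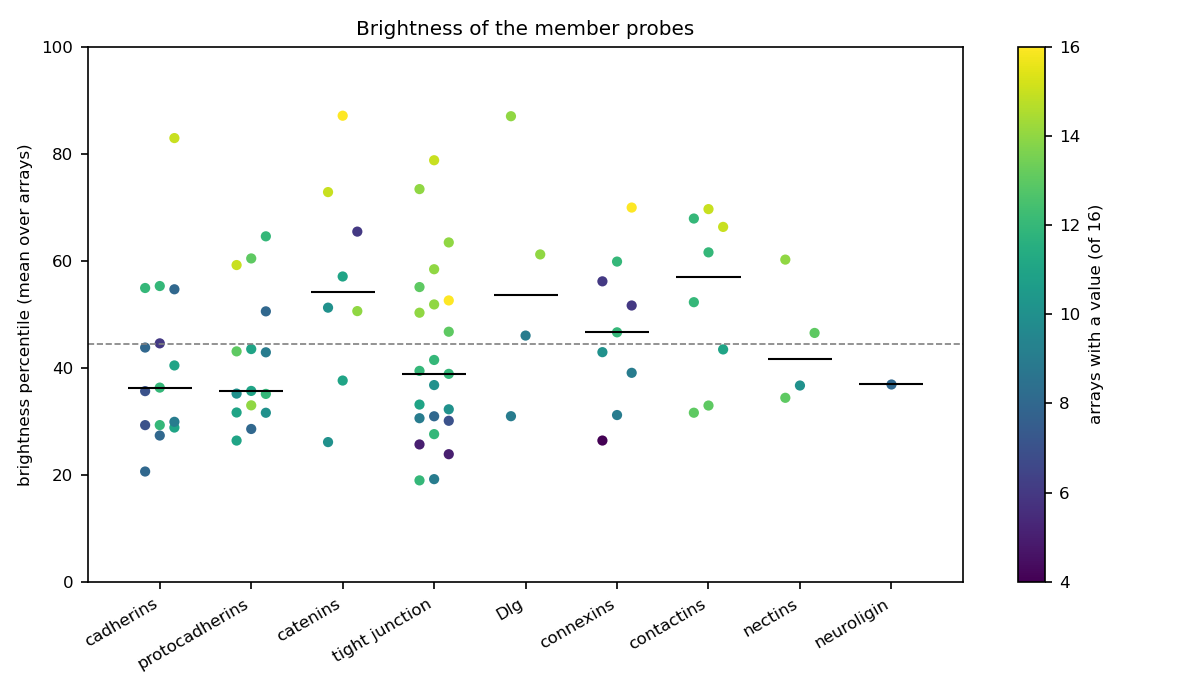
Brightness percentile of each of the 87 member probes (y axis, mean over the arrays with a value) by class (x axis), coloured by the number of arrays with a value out of 16. Black bars are class medians and the dashed line is the median of all probes at 44.5; Ctnnb1, Dlg4, a Cdh13 probe and a Cldn10 probe stand above 75.

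RefSeq promoter windows of assembly GRCm38.p6, 250 bases before to 50 after a start, were matched to 57 of the 83 genes. GGGCGG, the GC box, was present on either strand in 26 of the 57 windows (45.6%), against 55.8% of 6913 genes of the array. TATAAA was present on either strand in 7 (12.3%, against 10.2%). By class, 6 of the 7 catenin windows held a GC box and 0 held TATAAA, whereas 3 of the 8 connexin windows held TATAAA. Only 1 of the 6 contactin windows held a GC box. GC boxes were in 44.8% of the windows of the brighter members and 46.4% of those of the dimmer. A pair of windows is printed to show both kinds. Capitals mark each GC box or TATAAA found. The window of Ctnnb1, the brightest member, lies at chr9:120933150-120933449 on the + strand and has 46 CpG dinucleotides. That of Pcdh8, a protocadherin with 2 probes, lies at chr14:79771263-79771562 on the - strand and has 14.
Ctnnb1: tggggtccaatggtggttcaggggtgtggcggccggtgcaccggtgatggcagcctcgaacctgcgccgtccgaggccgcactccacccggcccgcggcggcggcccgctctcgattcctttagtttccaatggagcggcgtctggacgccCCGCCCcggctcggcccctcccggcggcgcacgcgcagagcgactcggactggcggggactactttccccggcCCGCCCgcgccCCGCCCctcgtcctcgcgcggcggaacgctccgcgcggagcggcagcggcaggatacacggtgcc
Pcdh8: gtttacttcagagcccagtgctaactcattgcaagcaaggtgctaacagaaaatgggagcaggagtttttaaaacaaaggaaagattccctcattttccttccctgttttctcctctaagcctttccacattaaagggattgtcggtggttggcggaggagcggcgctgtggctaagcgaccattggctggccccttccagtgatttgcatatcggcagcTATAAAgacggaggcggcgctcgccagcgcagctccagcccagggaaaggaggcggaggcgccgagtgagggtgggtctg
The Ctnnb1 window holds 3 GC boxes, each read on the opposite strand as CCGCCC, and the Pcdh8 window holds 1 TATAAA and no GC box. These letters describe the windows only. Of the array values, brightness alone was set beside them.

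No member passed the test of tumour against PBS at any time. At 18 h the limma moderated test called 0 of 58 members tested at an adjusted p under 0.05, and 0% of 5733 probes. The counts were 0 of 41 members and 0% of 4612 probes at 72 h, and 0 of 61 members and 0% of 7076 probes at 192 h. A member was tested at a time when at least 2 replicates gave a value. The smallest adjusted p of a member was 0.999 at 18 h and rounded to 1.00 at 72 and 192 h. At an unadjusted p under 0.05 there were 0 members at 18 h (4.54% of all probes), 1 at 72 h (0.976%) and 2 at 192 h (2.6%). Over the members, standard errors had a median of 0.17 at each of the 3 times. The mean of the 3 times called 0 of 25 members and 0% of 3156 probes, with 1 member, the Pcdh8 probe NM_021543, under an unadjusted 0.05 (2.82% of all probes). The F test of differences between times also called 0 members and 0% of the probes, with Cldn13 the 1 member under an unadjusted 0.05 (1.49%). Of the pairwise differences, 72 h minus 18 h had 0 of 30 members under an unadjusted 0.05 (1.72%), 192 h minus 18 h had 1 of 43, Cldn13 (3.1%), and 192 h minus 72 h had 2 of 33, Cldn13 and Dlg5 (1.16%). None of these passed after adjustment.

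The members as a whole centred near 0. At 18, 72 and 192 h their fitted log2 ratios had medians of -0.02, 0.02 and -0.01, beside -0.02, -0.01 and 0.01 for all probes tested. Of the 58 members at 18 h, 27 lay above 0 (45.6% of all probes did) and 31 below (54.4%). At 72 h 22 of 41 lay above 0 (46.3% of all probes) and 19 below (53.7%), and at 192 h 28 of 61 lay above 0 (53.8%) and 33 below (46.2%). Fitted ratios ran from -0.35 to 0.61 at 18 h, from -0.36 to 0.44 at 72 h and from -0.35 to 0.84 at 192 h. Past an absolute log2 ratio of 0.5 there was 1 member at 18 h, Cntn1 (3.02% of all probes), 0 at 72 h (1.15%) and 1 at 192 h, Dlg5 (1.99%).

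The spread of the members differed between replicates. The standard deviation of the members within a replicate was 0.18 to 0.34 in the 7 replicates of total RNA. It was 0.71 in replicate 1 and 0.59 in replicate 2 at 192 h, the poly(A) RNA replicates, where all probes had 0.49 and 0.47. The same 2 replicates were measured in 1 dye orientation each. RNA kind, print layout and the lack of a swap cannot be told apart there.

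**Figure D2:**
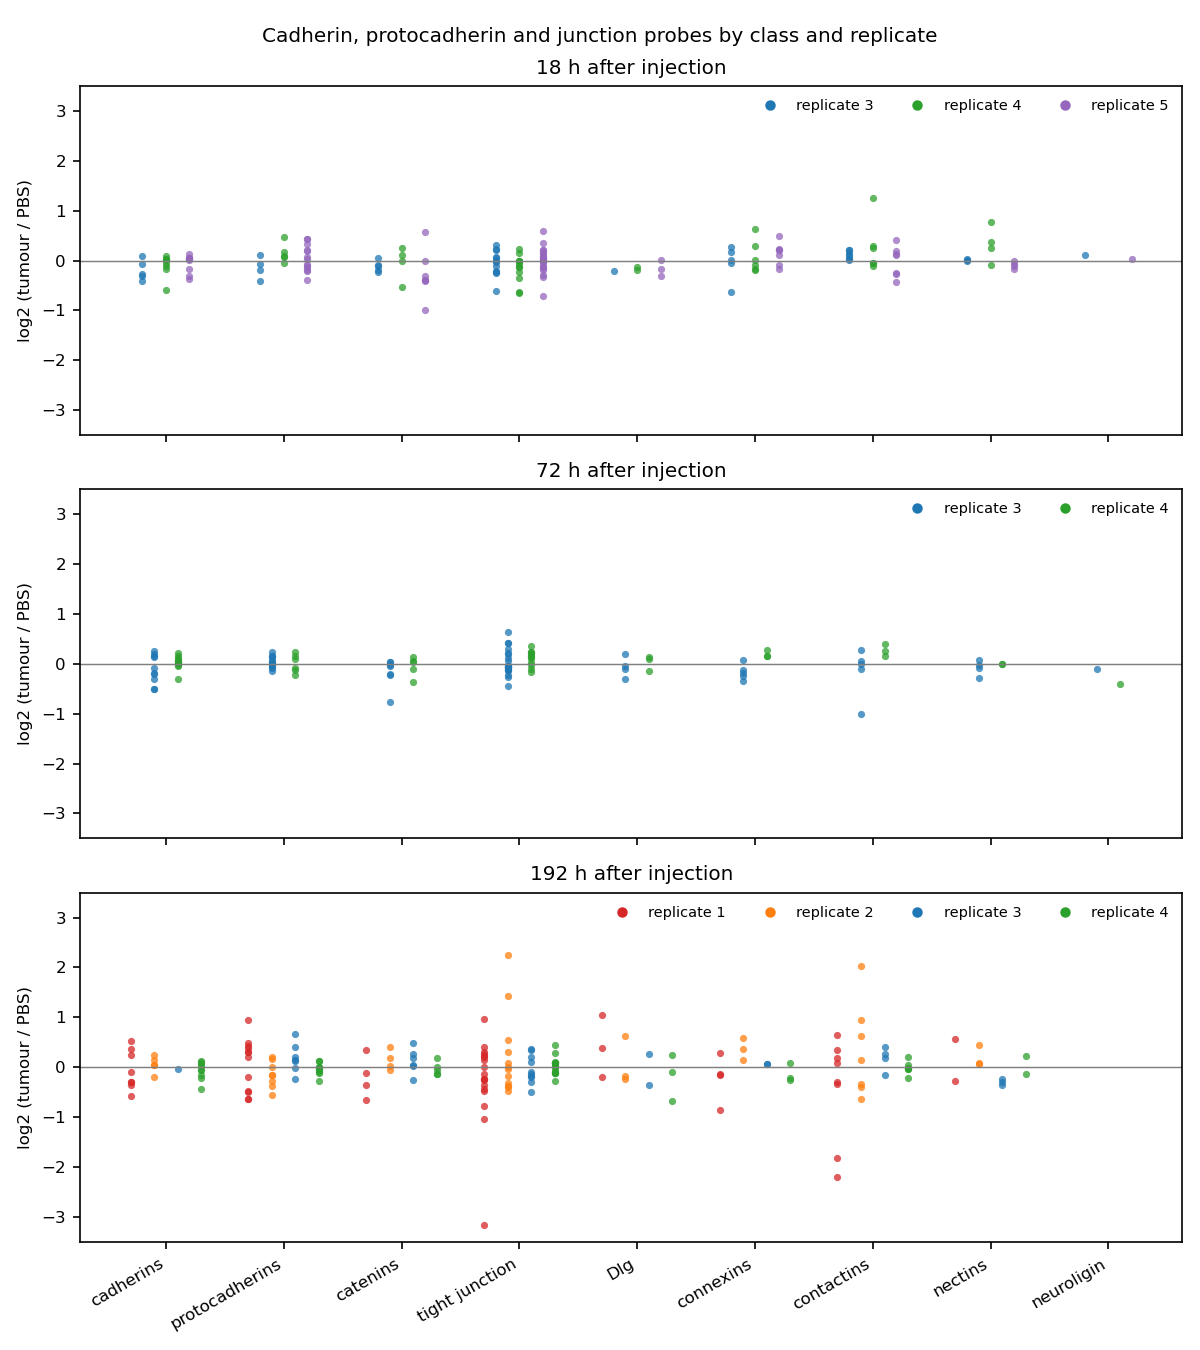
Log2 ratio of tumour over PBS (y axis) of every member with a value, by class (x axis) and by time (panels), with 1 colour per replicate. Most points lie within 0.5 of 0; the points beyond 2 are Cldn34b2 and Cntn3 in replicates 1 and 2 at 192 h, on opposite sides of 0.

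The cadherins gave small ratios of both signs. Cdh13, the brightest of them, gave 8 replicate values through its brighter probe (NM_019707): -0.07, 0.02 and 0.02 at 18 h, -0.31 and 0.01 at 72 h, and -0.10, 0.05 and -0.07 at 192 h (replicates 1, 2 and 4). The value of 72 h replicate 3 stood apart from the others, and the standard deviation over the 8 was 0.12. Its second probe (AK016527) gave 0.01 and 0.04 at 18 h in replicates 4 and 5, beside 0.02 and 0.02 for the first. Cdh9 and Cdh10 are type II cadherins that sort synapses. Cdh9 gave -0.40 and 0.01 at 18 h, -0.21 and -0.03 at 72 h, and -0.29 and -0.22 at 192 h, lower in 5 of 6 replicates. The fitted mean of its 3 times was -0.19 ± 0.09 (SE). Cdh10 gave -0.31 and 0.05, then -0.51 and 0.02, then -0.29 and -0.07, lower in 4 of 6, with a fitted mean of -0.18 ± 0.11. In both genes the low values at 18 and 72 h came from replicate 3. Cdh20, another type II cadherin, gave -0.18 and -0.37 at 18 h, -0.08 and 0.16 at 72 h, and 0.25 and 0.11 at 192 h. Both replicate values at 18 h lay below those at 192 h, with fitted ratios of -0.27 ± 0.15 and 0.18 ± 0.15. Neither passed the test. Cdh20 was picked by its p, and the share of all probes that separate in this way was not counted. The value of 0.25 came from 1 poly(A) array with tumour RNA in Cy3. In 192 h replicate 4 the orientations gave 0.24 and -0.03. Single arrays without a measured swap partner gave 0.10 in 18 h replicate 3 and -0.05 in 192 h replicate 3.

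Cadherins of other cell types were measured too. Cdh5, the VE-cadherin of endothelial junctions, gave -0.32 at 18 h in replicate 5, 0.14 at 72 h in replicate 3, and 0.52, -0.19 and 0.05 at 192 h (replicates 1, 2 and 4). Those values lie on both sides of 0 at 192 h, where the fitted ratio was 0.13 ± 0.17. Cdh1, the E-cadherin of epithelia, gave 0.09 and -0.58 at 18 h, -0.18 at 72 h and 0.25 at 192 h. Of the 9 cadherin probes tested at 18 h, 7 lay below 0, with a median of -0.13. At 72 h 4 of 8 did (median -0.04) and at 192 h 5 of 7 (median -0.04). The replicate medians at 18 h were -0.27, -0.02 and 0.03, lowest in replicate 3, which measured 5 of the probes.

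Protocadherins are the largest cadherin subfamily and 7 of the 15 probes belong to the alpha cluster, whose genes neighbour each other and share their last exons. Where the oligonucleotides lie in them is not given in the sources used here, so signal shared between alpha genes cannot be told apart. Pcdh8, a protocadherin regulated by neuronal activity, was measured by 2 probes. The brighter (NM_021543) gave -0.05 and -0.39 at 18 h, -0.15 and -0.22 at 72 h, and -0.17, -0.23 and -0.09 at 192 h (replicates 2, 3 and 4). It was lower in 7 of 7 replicates. In both swapped replicates at 192 h, however, the orientations differed in sign. With tumour RNA in Cy5 and Cy3, replicate 3 gave 0.01 and -0.47, and replicate 4 gave 0.14 and -0.33. In the swaps at 18 and 72 h that measured this probe, both orientations lay below 0. The fitted mean of the 3 times was -0.19 ± 0.08. This was the member with the smallest p for that mean, and it did not pass (adjusted p = 0.991). The other probe (AK006960) gave -0.40, 0.07 and -0.21 at 18 h, -0.09 at 72 h, and 0.48 and 0.19 at 192 h. At 192 h the 2 probes of Pcdh8 lay on opposite sides of 0, at -0.16 ± 0.12 and 0.34 ± 0.17, and replicate 2, which measured both, gave -0.17 and 0.19. The lower ratio of the brighter probe is therefore not shown for the gene.

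Pcdh1 gave 8 values: 0.09 and -0.20 at 18 h, 0.01 and -0.12 at 72 h, and 0.42, -0.56, 0.20 and -0.12 at 192 h. Its values took both signs at each time, with fitted ratios from -0.05 to -0.01. Over the 14 protocadherins tested at 192 h, 6 lay above 0 and 8 below, with a median of -0.02. Few were tested earlier, 6 at 18 h (median -0.08) and 5 at 72 h (median 0.06).

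Catenins had the brightest probe of the set and a wide one. Ctnnb1, which links cadherins to the cytoskeleton and carries the Wnt signal, gave -0.10, 0.11 and -1.0 at 18 h, -0.76 and 0.05 at 72 h, and -0.12, 0.03, -0.26 and near 0 at 192 h. The 2 low values stand alone, in 18 h replicate 5 and 72 h replicate 3, and each has a replicate near 0 beside it. In 18 h replicate 5 both orientations were low, at -0.75 (tumour in Cy5) and -1.24 (tumour in Cy3). The fitted ratios were -0.33 ± 0.21, -0.36 ± 0.25 and -0.09 ± 0.18. Ctnnd1, the p120 catenin that keeps cadherins at the membrane, gave -0.22 and -0.40 at 18 h, 0.04 and -0.36 at 72 h, and -0.14 at 192 h. It was lower in 4 of 5 replicates, with -0.31 ± 0.17 at 18 h. Ctnnd2, the δ-catenin of neurons, gave -0.18, 0.24 and -0.39 at 18 h, -0.20 and 0.04 at 72 h, and -0.36, 0.41, 0.49 and -0.05 at 192 h. It took both signs at every time.

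The α-catenins bind actin. Ctnna2, the form of neurons, gave -0.01 and a value near 0 at 18 h and no other replicate value. On single arrays whose swap partner gave none it was low, at -0.99 in 18 h replicate 3 and -1.06 in 192 h replicate 4. Ctnna1 gave -0.52 at 18 h, -0.23 at 72 h, and 0.35 and 0.19 at 192 h, where it stood at 0.27 ± 0.17. Ctnnbl1 gave 0.04 and 0.57 at 18 h, -0.02 at 72 h, and 0.27 and 0.18 at 192 h. Its orientations, Cy5 then Cy3, were -0.12 and 1.27 in 18 h replicate 5 and 0.74 and -0.37 in 192 h replicate 4. They also differed in sign in 18 h replicate 3 (0.14 and -0.05). In 192 h replicate 3 both lay above 0. Of the catenin probes tested, 5 of 6 lay below 0 at 18 h (median -0.18), 4 of 5 at 72 h (median -0.08) and 2 of 6 at 192 h (median 0.11). At 18 h the replicate medians were -0.10, 0.05 and -0.39, lowest in replicate 5. The 3 neuron markers measured in that replicate were low as well, with a median of -1.02, and their part in the catenin values was not tested.

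Tight junction probes were the largest class. Cldn13, a claudin gene of rodents, gave 0.23, 0.15 and 0.06 at 18 h, 0.29 and 0.20 at 72 h, and -0.47, -0.33 and -0.11 at 192 h (replicates 1, 2 and 4). All 5 early values lay above 0 and all 3 values at 192 h below it. Cldn13 was picked by its p, and the share of all probes that separate in this way was not counted. The fitted ratios were 0.15 ± 0.12, 0.25 ± 0.14 and -0.30 ± 0.12, and 192 h differed from 72 h by -0.55 and from 18 h by -0.45. The sign at each of the 3 times held in every alternative processing run. None passed, although Cldn13 had the smallest F test p of any member: the adjusted limma p rounds to 1.00 at 192 h and for the F test. On the single arrays of 18 h replicate 5 the ratio was 0.40 with tumour RNA in Cy5 and -0.27 in Cy3, so the 2 dyes there gave opposite signs. At 192 h the lowest values were those of the poly(A) RNA replicates.

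Cldn4, a claudin of epithelia, gave -0.02 and 0.06 at 18 h, 0.63 and 0.24 at 72 h, and 0.01 and 0.19 at 192 h. Both replicate values at 72 h exceeded all other replicate values, and the fitted ratio was 0.44 ± 0.16 (limma adjusted p = 1.00). On single arrays this did not hold. An array of 192 h replicate 4 without a measured swap partner gave 0.41, above the 0.17 and 0.31 of 72 h replicate 4. The higher value came from 72 h replicate 3, and the probe was among the dimmest, at percentile 27.6. On the print layouts of 192 h replicates 1 and 3 it lay at 4.58 and 10.4. Cldn3, another claudin of epithelia, gave 0.22 at 18 h, 0.20 and 0.24 at 72 h, and -0.24, -0.18 and 0.10 at 192 h. Cldn11 of myelin gave -0.01 and -0.34 at 18 h, -0.07 and 0.12 at 72 h, and -0.04, 0.11 and -0.11 at 192 h. Its ratios scattered around 0, with fitted values between -0.18 and 0.03.

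Ocln, occludin, gave -0.02 and -0.03 at 18 h, -0.13 and 0.16 at 72 h, and near 0 and -0.05 at 192 h, with a fitted mean of -0.01 ± 0.09. Some of these values near 0 are means of opposite orientations, such as -0.40 and 0.36 in 18 h replicate 4 and 0.34 and -0.43 in 192 h replicate 4. Tjp1, the scaffold ZO-1, gave -0.61, -0.12 and 0.05 at 18 h, -0.22 at 72 h, and -1.05, 1.42 and -0.49 at 192 h. The values of 192 h replicates 1 and 2 were large and opposite, and the fitted ratio was -0.04 ± 0.39. Cldn1 gave -0.23, -0.63 and 0.08 at 18 h, -0.26 at 72 h, and 0.20, -0.40 and 0.03 at 192 h. It lay at -0.26 ± 0.17 at 18 h. Cldn2 gave 0.04 and 0.02 at 18 h, 0.43 at 72 h, and -0.18, -0.30 and 0.07 at 192 h. Cldn10, a claudin also made by astrocytes in mice, gave 0.21 and -0.30 at 18 h, -0.07 and -0.10 at 72 h, and 0.31, -0.38, -0.15 and -0.01 at 192 h through its brighter probe (NM_021386). The second probe (AK020131), at percentile 19.2, gave -0.14, 0.15, -0.45 and 0.41 in 18 h replicates 4 and 5, 72 h replicate 3 and 192 h replicate 1.

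Cldnd1, named for a claudin domain, gave -0.10, -0.24 and -0.72 at 18 h, 0.21 and 0.04 at 72 h, and 0.97, -0.48, -0.20 and 0.08 at 192 h. It was the 1 member lower in all 3 replicates at 18 h, at -0.35 ± 0.23, out of 22 members with 3 values (14.6% of all such probes). In the class, 9 of 17 probes lay above 0 at 18 h (median near 0), 8 of 11 at 72 h (median 0.09) and 5 of 17 at 192 h (median -0.02).

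The Dlg scaffolds held the largest fitted ratio of any member. Dlg5, a scaffold of epithelial junctions and cell polarity, gave near 0 at 18 h in replicate 5, 0.19 and 0.14 at 72 h, and 1.05 and 0.63 at 192 h in replicates 1 and 2. It was higher in 5 of 5 replicates, and both values at 192 h stood above the rest. The fitted ratio at 192 h was 0.84 ± 0.17 (limma adjusted p = 1.00), with the smallest p of any member there. Those 2 values came from poly(A) RNA with 1 dye orientation each, opposite to one another, from 1 array in each replicate. The total RNA replicates gave no value at 192 h in both orientations, and the 1 array of replicate 3 that measured Dlg5, with tumour RNA in Cy3, gave 0.19. In 72 h replicate 4 the orientations gave -0.35 and 0.64, and in 18 h replicate 5 they gave 0.50 and -0.49. The probe was dim, at percentile 30.9. Over the alternatives the ratio at 192 h ran from 0.22 to 0.90.

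Dlg4 gave -0.18 and -0.17 at 18 h, -0.11 and -0.15 at 72 h, and -0.19, -0.18, 0.27 and 0.24 at 192 h. It was lower in 6 of 8 replicates, and the 2 higher values were the total RNA replicates at 192 h. The single arrays were less even. With tumour RNA in Cy5 and Cy3, 18 h replicate 5 gave -0.43 and 0.09, and 192 h replicate 4 gave 0.58 and -0.11. In the other swaps that measured Dlg4, the orientations shared a sign. The fitted ratios were -0.18 ± 0.16, -0.13 ± 0.16 and 0.03 ± 0.11. Dlg1, the scaffold SAP97, gave -0.20 at 18 h, -0.04 and 0.10 at 72 h, and 0.38, -0.25, -0.36 and -0.09 at 192 h. Dlg3, the X-linked synaptic scaffold SAP102, gave -0.14 and -0.30 at 18 h, -0.31 at 72 h and -0.68 at 192 h. It was lower in 4 of 4 replicates, 72 h replicate 3 among them. Single arrays without a measured swap partner gave 0.26 in 18 h replicate 3 and 0.06 in 192 h replicate 3. Dlg3 was tested at 18 h alone, with -0.22 ± 0.17.

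Connexins were led by Gja4, the connexin-37 of arterial endothelium. It gave 0.26, 0.01 and 0.10 at 18 h, -0.35 and 0.16 at 72 h, and 0.28, 0.14, 0.06 and 0.08 at 192 h. It was higher in 8 of 9 replicates, and the exception was 72 h replicate 3. At 192 h it was the only member of 13 with 4 values to lie above 0 in all 4 (3.45% of all such probes). The fitted ratio there was 0.14 ± 0.11. With tumour RNA in Cy5 and Cy3, 192 h replicate 3 gave 0.33 and -0.21, and replicate 4 gave 0.33 and -0.17. The orientations also differed in sign in 18 h replicate 4 (-0.08 and 0.10) and 72 h replicate 4 (0.37 and -0.05). In 18 h replicates 3 and 5 both orientations lay above 0. Gja3, the connexin-46 of the lens, gave 0.17, 0.63 and 0.23 at 18 h and no value later. Its fitted ratio of 0.35 ± 0.15 had the smallest p of any member at 18 h (limma adjusted p = 0.999). On the arrays of replicates 4 and 5 the 2 orientations gave 1.27 and near 0, and -0.31 and 0.78. Gjb6 and Gjb2, connexins of astrocytes and of the leptomeninges, took both signs. Gjb6 gave near 0 and -0.18 at 18 h, -0.13 and 0.16 at 72 h, and 0.59 and 0.06 at 192 h. Gjb2 gave -0.64, 0.29 and 0.21 at 18 h and -0.15 at 192 h. Gjc3, a connexin of myelinating glia, gave -0.20 and 0.21 at 18 h and -0.86, 0.37 and -0.23 at 192 h, again with replicates 1 and 2 opposite.

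Contactins are adhesion proteins of the immunoglobulin family on axons. Cntn4 gave 0.21, 0.30 and 0.18 at 18 h, 0.06 at 72 h in replicate 3, and 0.08, 0.39 and 0.21 at 192 h (replicates 1, 3 and 4). It was higher in 7 of 7 replicates, with 0.23 ± 0.12 at both 18 and 192 h. The probe was dim, at percentile 32.9. On the print layout of 192 h replicate 3, which gave the largest value, the probe lay at 2.70. On the arrays it lay above 0 on 11 of 13, and just below on 1 array each of 72 h replicate 4 (-0.05) and 18 h replicate 5 (-0.03). Cntn1, a contactin of nodes and synapses, gave 0.15, 1.26 and 0.41 at 18 h, 0.28 and 0.15 at 72 h, and -1.82, 0.94 and -0.04 at 192 h. It was higher in all 5 early replicates, and its 0.61 ± 0.41 at 18 h was the largest fitted ratio of any member there. The share of all probes higher in all 5 early replicates was not counted. With tumour RNA in Cy5 and Cy3, 18 h replicate 5 gave -0.55 and 1.37, and 72 h replicate 4 gave 0.64 and -0.33. In 18 h replicates 3 and 4 both orientations lay above 0. The value of 72 h replicate 3 rests on the array with the low same-layout correlation. The value of 1.26 came from an array with tumour RNA in Cy3 at 2.43, while its swap partner gave 0.08. Cntn2, which holds axon and myelin together near the node, gave 0.03, -0.10 and -0.44 at 18 h and -0.29, -0.39 and -0.15 at 192 h. All 3 values at 192 h were below 0, with a fitted ratio of -0.28 ± 0.13. The values of -0.29 and -0.39 came from the poly(A) replicates, each in 1 dye orientation. Single arrays without a measured swap partner gave 0.99 in 72 h replicate 4 and -0.39 in 192 h replicate 4. Cntn6 gave 0.21, -0.05 and 0.12 at 18 h, -1.01 and 0.40 at 72 h, and -0.33, 0.14, 0.17 and 0.04 at 192 h. The low value was again that of 72 h replicate 3.

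The Cntnap proteins are the partners of contactins at the paranode and along the axon. Cntnap1 gave near 0 and 0.14 at 18 h and 0.65, -0.65 and 0.26 at 192 h. Cntnap2 gave -0.28 at 18 h, -0.11 and 0.26 at 72 h, and 0.34, -0.34 and -0.22 at 192 h. In both, replicates 1 and 2 at 192 h mirrored each other. Of the 5 members above 0 in all 3 replicates at 18 h (of 22 with 3 values, against 9.86% of all such probes), Cntn1 and Cntn4 were contactins, Gja3 and Gja4 connexins, and the other was Cldn13. Over the class, 6 of 7 contactins lay above 0 at 18 h (median 0.07) and 4 of 8 at 192 h (median -0.03).

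Nectins and the neuroligin closed the set. Nectin4 gave 0.01, 0.37 and -0.08 at 18 h, -0.28 and -0.01 at 72 h, and 0.45, -0.31 and -0.15 at 192 h (replicates 2, 3 and 4). Its sign varied within every time but 72 h. Nectin3 was measured by 2 probes (NM_021495 and NM_021496), which gave 0.25 and 0.77 in 18 h replicate 4, and -0.25 and -0.37 in 192 h replicate 3. They shared those signs, and in the other replicates that measured both they stayed nearer to 0. Nlgn1, a postsynaptic partner of neurexins at excitatory synapses, gave 0.11 and 0.03 at 18 h and -0.09 and -0.40 at 72 h, with -0.25 ± 0.16 there. No neurexin probe was among the members.

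**Figure D3:**
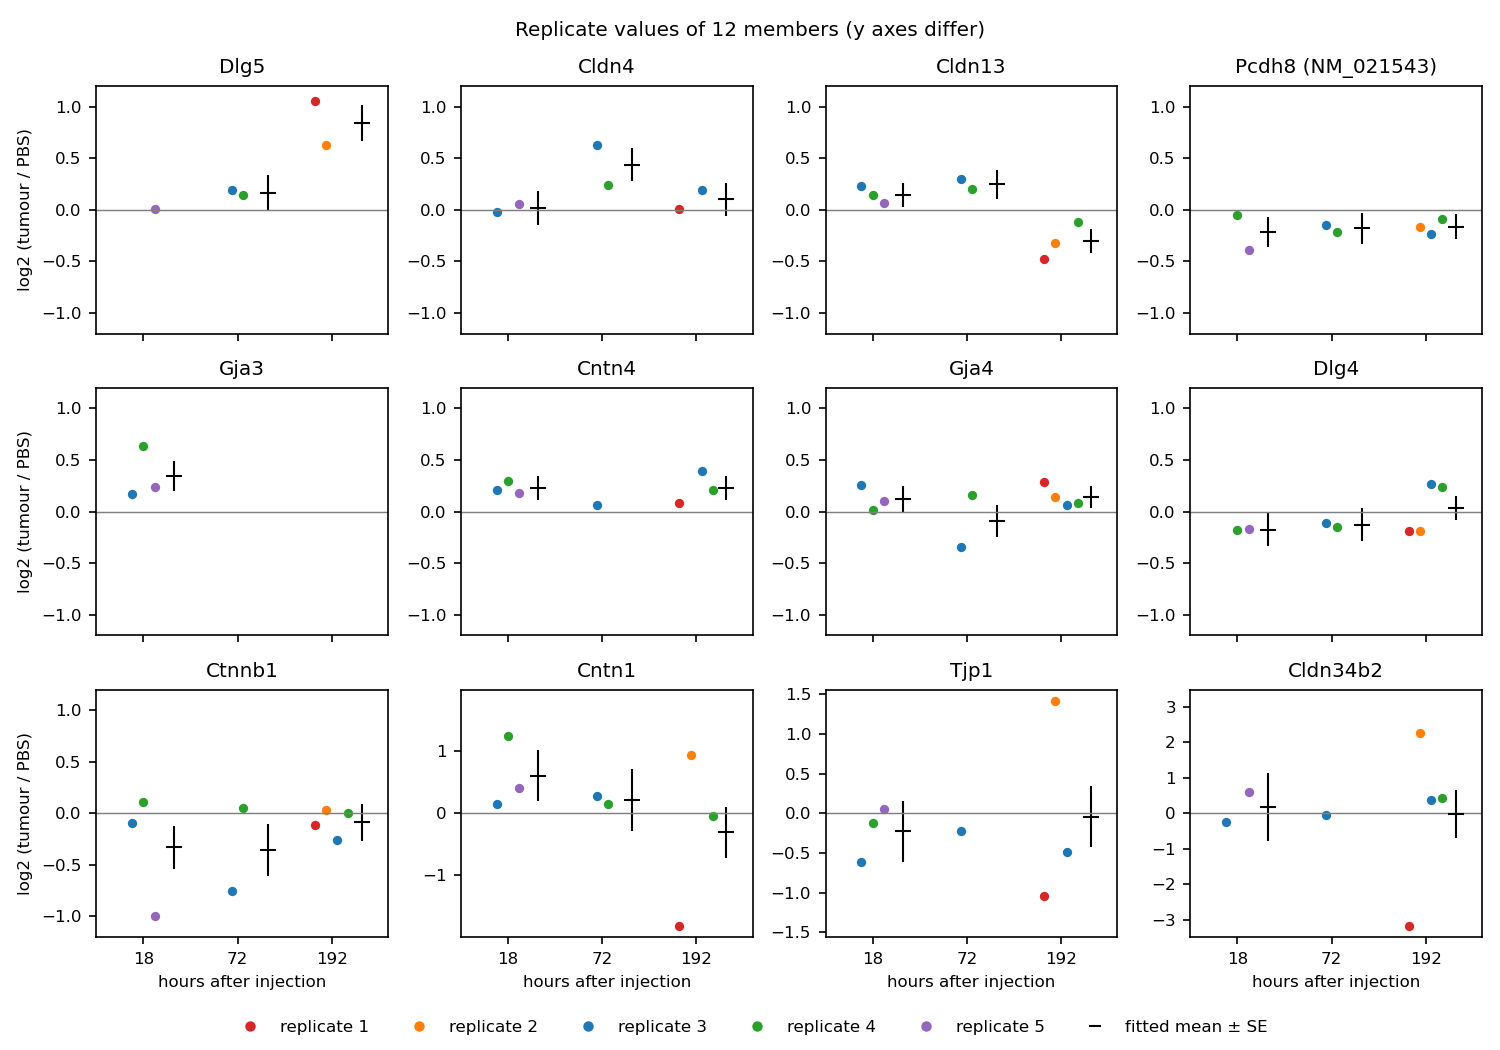
Replicate values (coloured points) and fitted means with standard errors (black) of the log2 ratio of tumour over PBS (y axis, scale differs by panel) at 18, 72 and 192 h (x axis) for 12 members. Cldn13 lies above 0 early and below 0 at 192 h, Cntn4 and the Pcdh8 probe keep 1 sign, and Cntn1, Tjp1 and Cldn34b2 split at 192 h between replicates 1 and 2.

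A single sign in every replicate was seen in few members. A replicate value can be the mean of orientations of opposite sign, as for Dlg5, the brighter Pcdh8 probe and others named below. Of the 68 members with 4 or more values, 2 were higher throughout, Dlg5 and Cntn4 (2.3% of all such probes were), and 4 were lower throughout, Dlg3, Nectin2, Cldn18 and the Pcdh8 probe NM_021543 (1.98%). Nectin2 had a mean of -0.11 ± 0.10 (SD, n = 5) and Cldn18 of -0.11 ± 0.09 (SD, n = 5). With tumour RNA in Cy5 and Cy3, every swap of Cldn18 gave opposite signs. Those of 18 h replicates 4 and 5 were 0.23 and -0.24, and -0.36 and 0.05. That of 72 h replicate 4 gave 0.02 and -0.05. Nectin2 turned in 18 h replicate 4 (-0.41 and 0.24) and 72 h replicate 4 (0.06 and -0.06). In 18 h replicate 5 both orientations of Nectin2 lay below 0. Dlg3 turned in 18 h replicate 4 alone (0.15 and -0.43). Cntn4 had a mean of 0.20 ± 0.12 (SD, n = 7) and Pcdh8 of -0.18 ± 0.11 (SD, n = 7). These 2 were the members of one sign among 11 with 7 values, where 1.55% of all probes with 7 values had one sign. They were picked by their values, so the counts describe them and test nothing. At 72 h, with 2 replicates, 11 of 41 members were higher in both (23.1% of all probes) and 8 lower in both (24%).

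The 2 dye orientations of a replicate seldom gave a member the same ratio. In a swap, a difference between tumour and PBS keeps its sign when the dyes change places, while a difference between dyes turns. Over all probes the 2 orientations of a replicate had a Pearson r of the tumour over PBS ratio from -0.39 to 0.09, and over the members from -0.67 to 0.36. The lowest was 18 h replicate 5, with 48 of 74 members of opposite sign (53.2% of all probes there). Cldn34b2, a claudin-like gene of a repeated X-linked family, gave -2.62 there with tumour RNA in Cy5 and 3.80 after the swap. Cntn3 gave -2.47 and 1.99, Gja10, a connexin of retina, -1.68 and 1.36, Gjc3 -1.50 and 1.92, and Cldn1 -1.34 and 1.51. In all 5 the channel labelled with Cy3 was the brighter, whichever RNA it held.

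The same split appeared between 192 h replicates 1 and 2, which are different samples in opposite orientations. Cldn34b2 gave -3.17 and 2.25, Cntn3 -2.21 and 2.03, Cntn1 -1.82 and 0.94, and Tjp1 -1.05 and 1.42. Of the 34 members measured in both, 25 had opposite signs (62.2% of all probes), with r = -0.79 (r = -0.47 over 3955 probes). In the 4 genes just named the Cy3 channel was again the brighter, but over the 25 members it was the brighter in 13 and Cy5 in 12. The dye term is the difference between the orientations divided by 2, which within a swap is the log2 ratio of Cy5 over Cy3. For the 192 h pair it also holds the difference between the 2 samples, which cannot be told apart from the dye. Between 18 h replicate 5 and the 192 h pair the dye term had a Pearson r of 0.74 and a Spearman rho of 0.39 over 32 members, on different print layouts and different RNA, and r was 0.49 over 3556 probes. These points share the probe, and those 2 sets were picked for their large values. Over all 21 pairings of the 6 swaps and the 192 h pair, r over the members ran from -0.40 to 0.81 and was below 0 in 8, while over all probes it ran from 0.04 to 0.49. A dye term beyond 1 was found in 5 of 74 members in 18 h replicate 5 (2.43% of all probes) and in 4 of 34 in the 192 h pair (2.4% of all probes), always towards Cy3.

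The pattern was not uniform. In the other 5 swaps 1 member, Cntn1 in 18 h replicate 4, passed a dye term of 1. Cldn34b2 stood at 0.04 in 18 h replicate 3 and -0.53 in 192 h replicate 3, and Cntn3 at -0.12 and -0.08 in 18 h replicates 3 and 4. A limma test of the dye term over the 6 swaps called 0.386% of 8027 probes, 31 in all, and 0 of 78 members. At an unadjusted p under 0.05 it had 1 member, Gjc1, a connexin of heart and vessels, at -0.42 ± 0.14, against 9.16% of all probes. The mean of the 2 orientations over the same swaps, which is the tumour over PBS ratio without the dye term, called 0% of the probes and 0 members. Over the 78 members the fitted dye terms had a standard deviation of 0.21 and the fitted means of 0.15 (0.22 and 0.16 over all probes). Of the 17 probes called for the dye term that the 192 h pair also measured, 16 had the same sign there. Without the dye term 8 members had an unadjusted p under 0.05, where 4.02% of all probes had one. They were Cntn4 (0.26 ± 0.08), Gja3 (0.35 ± 0.13), Ctnnbl1 (0.27 ± 0.11), Cntn1 (0.39 ± 0.16), Ctnnd1 (-0.28 ± 0.10), Dlg3 (-0.38 ± 0.14), Pcdh8 NM_021543 (-0.20 ± 0.08) and Tjp1 (-0.29 ± 0.13), each at an adjusted p of 0.928. These fits over the swaps were added after the values had been seen. They pool the swaps of 18, 72 and 192 h into 1 mean and do not separate the times. Gja3 was measured in the swaps of 18 h alone, so its mean here repeats its fitted ratio at 18 h.

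**Figure D4:**
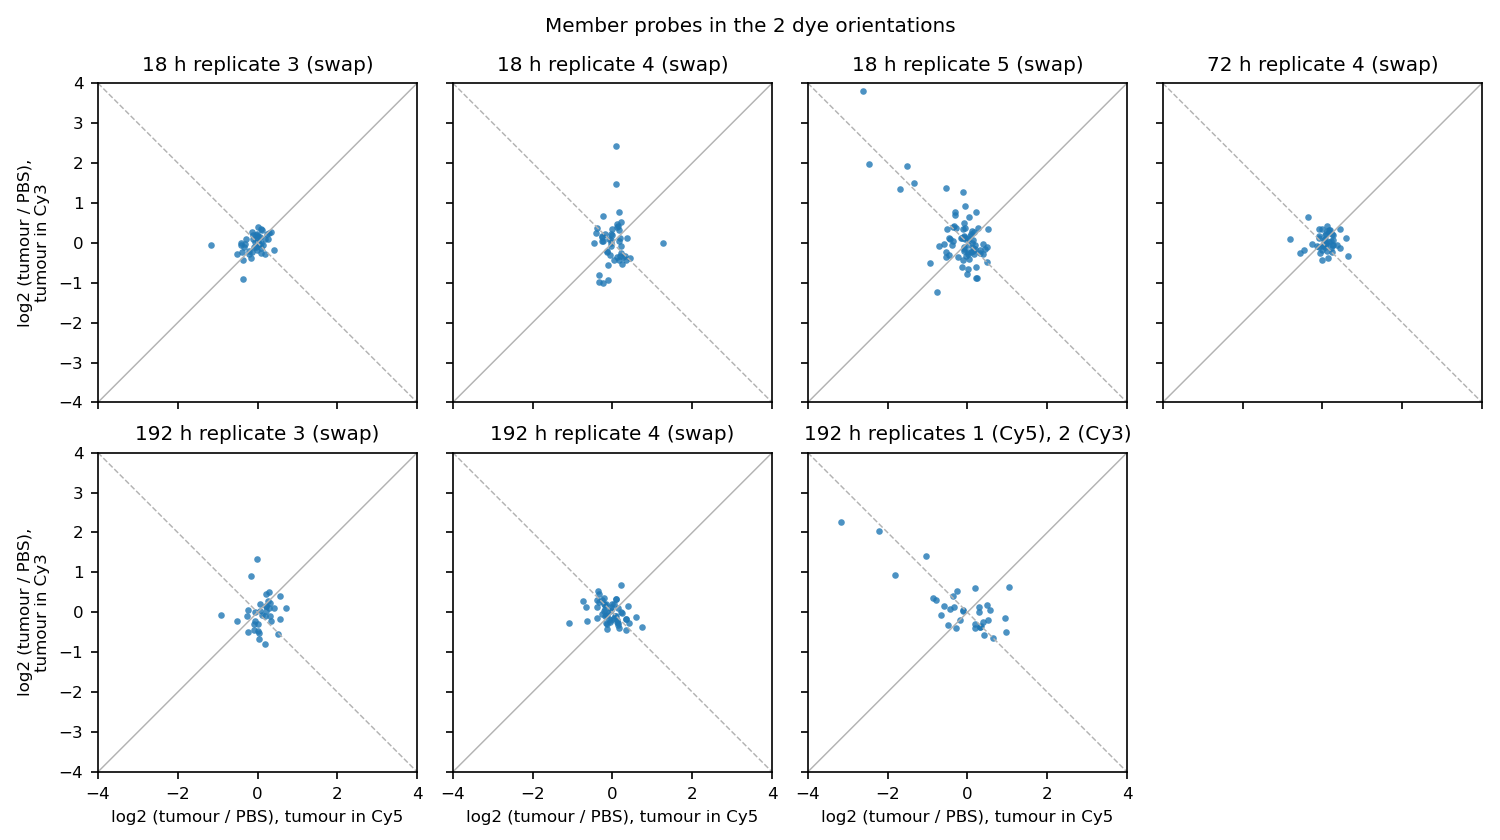
Log2 ratio of tumour over PBS of each member measured with the tumour sample in Cy5 (x axis) and in Cy3 (y axis), 1 panel per swapped replicate and 1 for 192 h replicates 1 and 2. The solid diagonal is an equal ratio and the dashed one a ratio that turns with the dyes; in 18 h replicate 5 and in the 192 h pair the far points follow the dashed line.

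Genes of the same structures outside the rule were not called either. Of 51 probes for other adhesion and junction genes (desmosomal, polarity, Fat, Celsr, Cadm, L1 family and synaptic scaffold genes among them), 32 were tested at 18 h with 17 above 0 (median 0.01), 25 at 72 h with 13 above 0 (median near 0), and 40 at 192 h with 22 above 0 (median 0.02), and 0 were called. Endothelial markers, whose cells carry many of the tight junction genes, were tested through 1 probe at each time, at 0.03, -0.24 and 0.05. The value at 72 h is the mean of -0.55 in replicate 3, the array that stood apart, and 0.07 in replicate 4. The 3 neuron markers tested at 18 h lay below 0, with a median of -0.47, from -0.65 to -0.23, and 0 were called. Their medians in replicates 3, 4 and 5 were 0.07, -0.45 and -1.02, so the low values were those of replicates 4 and 5. The part of these in the values of the neuronal members was not tested. In tissue RNA, fewer cells of a type and less RNA per cell cannot be told apart.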

How the data were processed

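Per the file headers, each of 3 scanner files per array gives the spot intensity of both channels, from which the authors' software had subtracted the local background, and the background intensity. The authors' deposited score per spot, a log ratio whose base is not stated (unit treated as a score), served for signs alone. Channel A was taken as Cy3 and B as Cy5, since the deposited scores then follow the labels (correlation 0.459 to 0.856). Spots marked B, X, Y or Z were left out, log2 ratios were normalised by a global loess (span 0.3, 4 iterations) and averaged over files, spots and the arrays of a replicate, and a swap needed both orientations. 1 file with compressed ratios (standard deviation 0.123, all others at least 0.269) was left out. limma 3.58.1 under R 4.3.3 fitted a mean per time, with Benjamini-Hochberg adjustment over all probes and a threshold of 0.05.

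The 7 arrays were left out at a mean rho under 0.1, computed against arrays of other layouts on which 94 ribosomal and respiratory chain probes lay at or above the 75th percentile. Symbols come from the platform tables, updated with RefSeq for GRCm38.p6. No build is named by the platform, so gene positions are not given apart from those of the RefSeq windows. The members and lists were chosen with earlier results of these data known. Values in full are given for the 5 members with the smallest p per comparison, the 5 brightest, the brightest of the most measured in each class, and a set of well-known junction genes. Others are named after their values were seen. Cdh20, Cldn4, Cldn13 and Dlg5 were picked by their p, so the separation of their values by time describes them and tests nothing. The share of all probes separated in such ways was not counted. Alternatives changed background, normalisation, scanner file, dim spots, arrays, dye handling, weights, layout block, RNA kind and replicates. Errors are standard errors of the fit unless named SD.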

Additional observations from a re-analysis of the deposited data

How the results depend on the processing

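No alternative called a member: the counts at 18, 72 and 192 h, for the mean of the times and for the F test were 0 in each of the 26 alternatives run (27 for the F test), with lowest adjusted p of 0.759, 0.745, 0.862, 0.885 and 0.97. The fit with the replicate number as a replicate block also called 0 members. Same-numbered replicates deviated with correlations from -0.17 to -0.0047. With so few replicates at each time, these values cannot settle what the numbers mark, which the labels do not say.

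The median of the members at 18 h, -0.02, moved to -0.0594 with median centring in place of loess, to -0.0385 with scaling between arrays, to -0.123, -0.139 and -0.0615 with scanner file 1, 2 or 3 alone, to -0.0382 without dim spots, and to 0.00529 where 1 orientation was enough. At 72 h it moved from 0.02 to -0.0803 without dim spots. Median centring gave 0.0771 at 72 h and turned the 192 h median from -0.01 to 0.0598, the highest of the alternatives at each of these times. Leaving out 1 replicate at a time gave medians from -0.0333 to 0.0215 at 18 h, from -0.0581 to 0.0757 at 72 h and from -0.0364 to 0.0108 at 192 h. The causes were not tested. Of the 98 values given for named members at a time, 32 kept their sign in every alternative run and 66 turned in at least 1 of 27, none of them called. The alternative that keeps the compressed scanner file was chosen after seeing the data.

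Limits: with 2 to 4 replicates and a median standard error of 0.17, small ratios are not detectable. Without 1 replicate at 72 h, and with swapped replicates alone, 72 h rests on 1 replicate, assumed to vary like the others. Scanner file 3 alone has no 192 h replicate 3. Signal was 1.73 to 2.89 times the background.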

Other observations

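The ranges of single members over the alternatives were wide. The 18 h ratio of Cntn1, 0.61, ranged from 0.14 to 0.83 over the alternatives and its 192 h ratio of -0.31 from -0.93 to 0.45. Tjp1 at 192 h ranged from -0.77 to 0.46. Cldn13 ranged from 0.01 to 0.23 at 18 h, from 0.13 to 0.35 at 72 h and from -0.40 to -0.13 at 192 h, and the brighter Pcdh8 probe from -0.44 to -0.11 at 18 h, from -0.25 to -0.03 at 72 h and from -0.44 to -0.02 at 192 h. None of these values was called in any alternative. Among the members with 4 values at 192 h, 9 were examined for a replicate standing apart from the other 3, and 0 were found.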
